A study of Mus musculus with 6 samples.

Results

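The circadian clock genes examined here are Per1, Per2, Per3, Cry1, Cry2, Dbp, Nr1d1, Nr1d2, Arntl and Clock, taken as every non-control probe of the arrays that carries 1 of these gene names. They are 10 of the 35527 gene names on the array and hold 14 of its 55681 non-control probes, and each of them was tested by at least 1 probe. Cells of the mouse fibroblast line 3T3 received either GapmeR Ntep or GapmeR control at 50 nM and were analysed after 48 h. A GapmeR is a short modified DNA strand that pairs with a chosen RNA and lets RNase H cut it, here the long non-coding RNA Ntep. The experiment was done 3 times, each time with 1 culture for either GapmeR, so that 6 Agilent arrays in 1 colour were available. All groups carried a transfected GapmeR, and cells without any GapmeR were not analysed here. The growth protocol names medium with serum, and neither the hour of harvest nor a step that sets the cells to a common clock phase is given in the sources used here.

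In mammalian cells, fibroblasts included, the proteins CLOCK and ARNTL (also called BMAL1) bind together to DNA elements named E-boxes and switch on the Per and Cry genes and the genes of the nuclear receptors REV-ERB alpha and beta (Nr1d1 and Nr1d2). PER and CRY proteins then act back on CLOCK and ARNTL, and the REV-ERB proteins repress Arntl, so that the transcripts rise and fall over the day. Per1 and Per2 are also induced directly by serum, cyclic AMP and glucocorticoids. Dbp is an output of the clock, a transcription factor that acts through D-box elements.

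The probe of the targeted RNA, listed as A630089N07Rik, read 472, 91 and 226 under the GapmeR Ntep label (experiments 1, 2 and 3) and 271, 272 and 361 under the GapmeR control label. In experiment 1 it was therefore higher on the array labelled GapmeR Ntep, and the log2 difference of -0.48 (SE 0.58) did not pass the test (limma adjusted p = 0.632). Where this probe lies relative to the site of the GapmeR was not examined. All directions below are those of the labels, and values within each experiment are given so that experiment 1 can be set aside. The collagen genes Col1a1 and Col3a1, looked up after their values were seen, read lower under the GapmeR Ntep label in each experiment, with log2 differences of -0.53 and -1.15 in experiment 1 and limma adjusted p values of 0.212 and 0.164 over all arrays. So did the other fibroblast markers summed below, except Vim (0.07, -0.24 and -0.20 within experiments) and Thy1 (-0.03, 0.35 and -0.16). Whether the labels of experiment 1 are right was not tested. The share of probes well above background was 43.7% to 53.3% per array, and saturation was not seen (0 probes). Of 10 fibroblast markers, 9 were well above background on all arrays, and their summed signal was 555793 to 737645 on the GapmeR Ntep arrays against 808632 to 892119 on the GapmeR control arrays. The summed signal of 5 macrophage markers was 10678 to 16936 against 4567 to 6542, while the defining markers Ptprc and Emr1 were not well above background on any array. Most of this sum was Cd68 (log2 difference 1.21, limma adjusted p = 0.0287). Csf1r differed by 3.19 (limma adjusted p = 0.151) and Lyz2 by -0.18 (limma adjusted p = 0.746). Summed signals of the 3 endothelial markers were 708 to 786 against 539 to 615, with Cdh5 not well above background on any array, and those of the 4 epithelial markers were 2727 to 5354 against 1767 to 3750. The fibroblast, macrophage and endothelial sums did not overlap between the labels, whereas the epithelial sums did, and the part of these markers in the results below was not tested. In such bulk RNA, fewer cells with a transcript and less transcript per cell cannot be told apart.

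Of the 10 clock genes, Nr1d1 and Per1 were higher and Clock was lower on the GapmeR Ntep arrays, both by an adjusted p under 0.05 and by a fold change of at least 2 with an unadjusted p under 0.01. Per2 was higher in every experiment but did not pass the adjusted test. Per3, Cry1, Cry2, Nr1d2, Dbp and Arntl passed neither rule. Across the 22094 gene names tested, 1.98% were higher and 3.17% lower by the adjusted p, and 2.88% were higher and 4.99% lower by the fold change and unadjusted p. For 3 clock genes (Nr1d1, Per1 and Per2) all GapmeR Ntep signals lay above all GapmeR control signals, and for Clock all lay below. Such separation occurred in 17.1% of all tested gene names upwards and in 15.4% downwards. The median log2 difference of the 10 genes was -0.02, with 5 genes above 0 and 5 below, beside a median of 0.06 over all tested gene names.

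**Figure D1:**
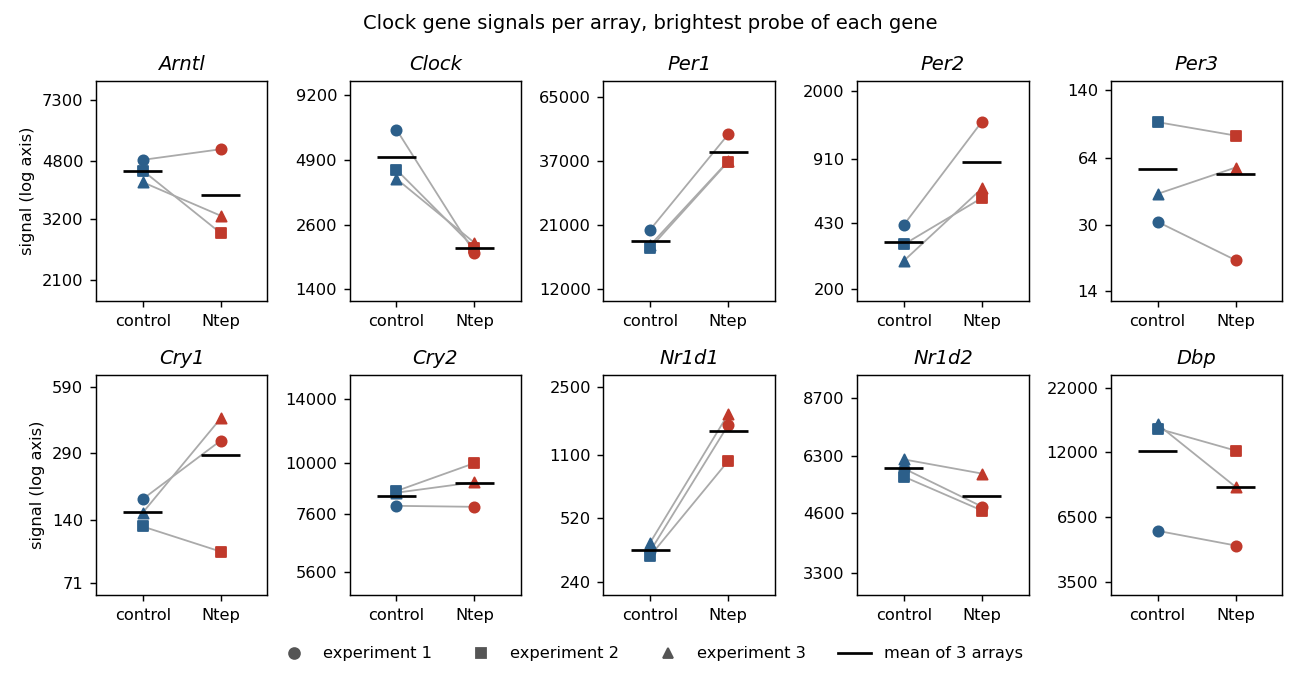
Signals of the 10 clock genes on the 6 arrays, by the brightest probe of each gene, after quantile normalization with a floor of 20 (vertical log axes that differ between panels). Grey lines join the arrays of 1 experiment and black bars are means of 3 arrays. In the panels of Nr1d1, Per1 and Per2 every GapmeR Ntep point lies above the GapmeR control points, in that of Clock every point lies below, and in the other panels the groups overlap.

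The largest difference was that of Nr1d1, which encodes the repressor REV-ERB alpha. Its single probe (A_51_P223776) lies at chr11:98630526-98631028 in mm9, where 60 bases spread over 503 bases of genome and so cross an exon junction. The whole probe is shown because it alone carries this result, and it reads Nr1d1: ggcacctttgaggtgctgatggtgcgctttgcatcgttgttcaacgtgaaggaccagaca. Signals were 1580, 1028 and 1802 on the GapmeR Ntep arrays of experiments 1, 2 and 3, and 349, 330 and 387 on the GapmeR control arrays. The control values lay within 0.23 of each other on the log2 scale, and the lowest GapmeR Ntep value, that of experiment 2, was still above the highest control value. The mean rose from 355 ± 29.1 to 1470 ± 399 (mean ± SD, n = 3 arrays each). Fold changes are taken from the fitted log2 difference, and that of Nr1d1 was 4.03. On the log2 scale the difference was 2.01 (SE 0.25, 95% interval 1.4 to 2.63, limma adjusted p = 0.0246). It was 2.18, 1.64 and 2.22 within the experiments, and 1.93 without experiment 1. Leaving out both arrays of experiment 1 gave a limma adjusted p of 0.0651, and leaving out single arrays gave 0.0384 without GapmeR Ntep 2, 0.0531 without GapmeR Ntep 1, 0.0598 without GapmeR control 1, 0.0957 without GapmeR Ntep 3, 0.103 without GapmeR control 3 and 0.128 without GapmeR control 2.

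Nr1d2, which encodes the related repressor REV-ERB beta, was not called by either probe. Its brighter probe (A_55_P2148534, chr14:19036568-19036627 in mm9) gave 4766, 4663 and 5726 on the GapmeR Ntep arrays and 5888, 5627 and 6194 on the GapmeR control arrays. Each experiment was slightly lower with GapmeR Ntep, but the groups overlapped through experiment 3. The log2 difference of -0.23 (SE 0.17, 95% interval -0.64 to 0.18, limma adjusted p = 0.437) did not pass the test. The other probe (A_52_P303891, chr14:19037253-19037312) read 4670, 5509 and 5303 against 6026, 5008 and 4760. This probe was lower in experiment 1 and higher in experiments 2 and 3, for a log2 difference of -0.02 (95% interval -0.46 to 0.41, limma adjusted p = 0.942), or 0.15 without experiment 1. The intervals of both probes exclude a rise as large as the lower bound of 1.4 for Nr1d1, although the difference between the genes was not itself tested.

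Per1, a PER repressor that also responds early to serum and hormones, rose on the GapmeR Ntep arrays. Probe A_55_P1970033 at chr11:68923364-68923423 in mm9, base 4564 of its transcript, begins with the 30 bases Per1: gtgttctcagctctaccctctaccaatgac. It gave 46693, 36714 and 36904 on the GapmeR Ntep arrays, against 20181, 17178 and 17603 on the GapmeR control arrays. The groups were far apart, and the differences within experiments, 1.21, 1.10 and 1.07 on the log2 scale, were close to each other. Mean signals were 40104 ± 5708 and 18321 ± 1625 (mean ± SD, n = 3 each), and the fitted rise was 2.18-fold. The log2 difference was 1.12 (SE 0.18, 95% interval 0.68 to 1.57, limma adjusted p = 0.0335). Without experiment 1 it was 1.08 with a limma adjusted p of 0.052. Leaving out single arrays gave limma adjusted p values of 0.0505 without GapmeR Ntep 2, 0.063 without GapmeR control 1, 0.0634 without GapmeR Ntep 1, 0.111 without GapmeR Ntep 3, 0.14 without GapmeR control 3 and 0.152 without GapmeR control 2, with differences of 1.01 to 1.20. With 75th percentile scaling in place of quantile normalization the adjusted p was 0.0505. A second Per1 probe (A_55_P2019327, chr11:68919895-68919954), designed on a cDNA clone and starting ttagtgtttcagggcagtagaggtggccgg, was not well above background on any array and was not tested. Its signals were 42.7, 31.6 and 33.1 against the floor of 20 on all GapmeR control arrays.

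Per2 encodes the PER protein closest in role to PER1. Its probe (A_51_P282760, chr1:93313046-93313105 in mm9) begins with Per2: acctttcacagtgatcaggtagtagccatg. The GapmeR Ntep arrays gave 1395, 577 and 644, and the GapmeR control arrays 423, 337 and 279. All GapmeR Ntep values were above all control values, and the GapmeR Ntep array of experiment 1 stood well above the other two. The log2 difference of 1.23 (SE 0.38, 95% interval 0.30 to 2.17) did not pass after adjustment (limma adjusted p = 0.116, unadjusted p = 0.0178). Within experiments it was 1.72, 0.77 and 1.21. With the experiment as a replicate block the limma adjusted p was 0.0467, and with array weights in the unpaired fit it was 0.0147. The call for Per2 therefore depended on the fit that was used. Without experiment 1 the difference was 0.99 (limma adjusted p = 0.068).

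The third PER gene, Per3, was at the edge of detection, and its probe (A_51_P258493, chr4:150379256-150379315) was well above background on only 1 array of each group. Signals were 20 (the floor), 83.1 and 57.7 with GapmeR Ntep, and 31, 96.9 and 42.7 with GapmeR control. Arrays of experiment 2 were the highest under both labels. The log2 difference of -0.14 had a 95% interval of -1.74 to 1.46 (limma adjusted p = 0.912), which leaves its direction unknown, and the value was 0.46 without GapmeR Ntep 1, 0.33 without GapmeR control 2 and 0.11 without experiment 1.

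The cryptochromes, partners of the PER proteins in repression, passed no test. Cry1 (A_52_P420500, chr10:84594731-84594790) gave 331, 99.9 and 421 on the GapmeR Ntep arrays and 176, 131 and 152 on the GapmeR control arrays. The control arrays were close together, whereas GapmeR Ntep 2 lay below all of them and GapmeR Ntep 1 and 3 above. Differences within experiments were 0.91, -0.39 and 1.47, with a mean of 0.66 (SE 0.55, 95% interval -0.68 to 2.01, limma adjusted p = 0.484). Without GapmeR Ntep 2 the Cry1 difference was 1.30 (limma adjusted p = 0.0516), and without GapmeR Ntep 3 it was 0.26. For Cry2 the brighter probe (A_55_P2016540, chr2:92243807-92243866) was nearly level, at 7906, 9976 and 9011 against 7947, 8600 and 8523. Its log2 difference was 0.10 (95% interval -0.31 to 0.50, limma adjusted p = 0.748), so a change as large as that of Per1 lies outside the interval. The dimmer Cry2 probe (A_55_P1953708, chr2:92251417-92251476), which lies elsewhere in the gene, read 911, 1278 and 1022 against 502, 1127 and 662. It was higher in each experiment but the groups overlapped, with a log2 difference of 0.56 (95% interval -0.26 to 1.37, limma adjusted p = 0.354).

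On the activating side, Clock was lower with GapmeR Ntep and Arntl was not called. The Clock probe (A_52_P334670, chr5:76641377-76641436 in mm9) sits near the far end of the transcript, at base 7243, and begins with Clock: ttcccatttgagttgctcttgtaatatttt. No other probe for Clock was on the array, so other parts of the transcript were not read. Signals of the Clock probe were 1989, 2086 and 2192 on the GapmeR Ntep arrays and 6565, 4449 and 4073 on the GapmeR control arrays. The GapmeR Ntep arrays differed from each other by at most 0.14 on the log2 scale, and the lowest control array was still well above them. Means were 2089 ± 102 and 5029 ± 1343 (mean ± SD, n = 3 each), and the fitted level was 2.36-fold lower with GapmeR Ntep. The log2 difference was -1.24 (SE 0.23, 95% interval -1.79 to -0.68, limma adjusted p = 0.0401), and -1.72, -1.09 and -0.89 within experiments. Without experiment 1 it was -0.99 (limma adjusted p = 0.0582). Limma adjusted p values were 0.063 without GapmeR control 1, 0.0697 without GapmeR Ntep 2, 0.0891 without GapmeR Ntep 1, 0.118 without GapmeR control 3, 0.125 without GapmeR Ntep 3 and 0.15 without GapmeR control 2. With 75th percentile scaling the adjusted p was 0.0575, and with no filter on dim probes 0.0526.

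Arntl, whose product pairs with CLOCK, gave 5189, 2911 and 3282 on the GapmeR Ntep arrays and 4822, 4481 and 4135 on the GapmeR control arrays (probe A_55_P2408588, chr7:120457261-120457320). In experiment 1 the array labelled GapmeR Ntep was the highest of all, and in the other experiments it was lower than its control. The log2 difference of -0.28 (SE 0.26, 95% interval -0.91 to 0.34, limma adjusted p = 0.521) was within the spread of replicates. It was 0.11, -0.62 and -0.33 within experiments and -0.48 without experiment 1 (limma adjusted p = 0.147).

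Dbp, the output gene, was read by a pair of probes at the same end of the transcript. The brighter (A_55_P2032081, chr7:52965322-52965381) gave 4940, 12148 and 8610 on the GapmeR Ntep arrays and 5678, 14972 and 15569 on the GapmeR control arrays. Both arrays of experiment 1 were low, and every experiment was lower with GapmeR Ntep, by 0.20, 0.30 and 0.85 on the log2 scale. The groups overlapped, and the log2 difference of -0.45 (SE 0.51, 95% interval -1.71 to 0.80) did not pass the test (limma adjusted p = 0.61, or 0.183 with experiments as a replicate block). It was -0.10 without GapmeR Ntep 1 and -0.93 without GapmeR control 1. The dimmer probe (A_55_P2032079, chr7:52965461-52965520) read 3721, 8391 and 4817 against 4151, 9328 and 9825, with the same log2 difference of -0.45 (limma adjusted p = 0.567).

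**Figure D2:**
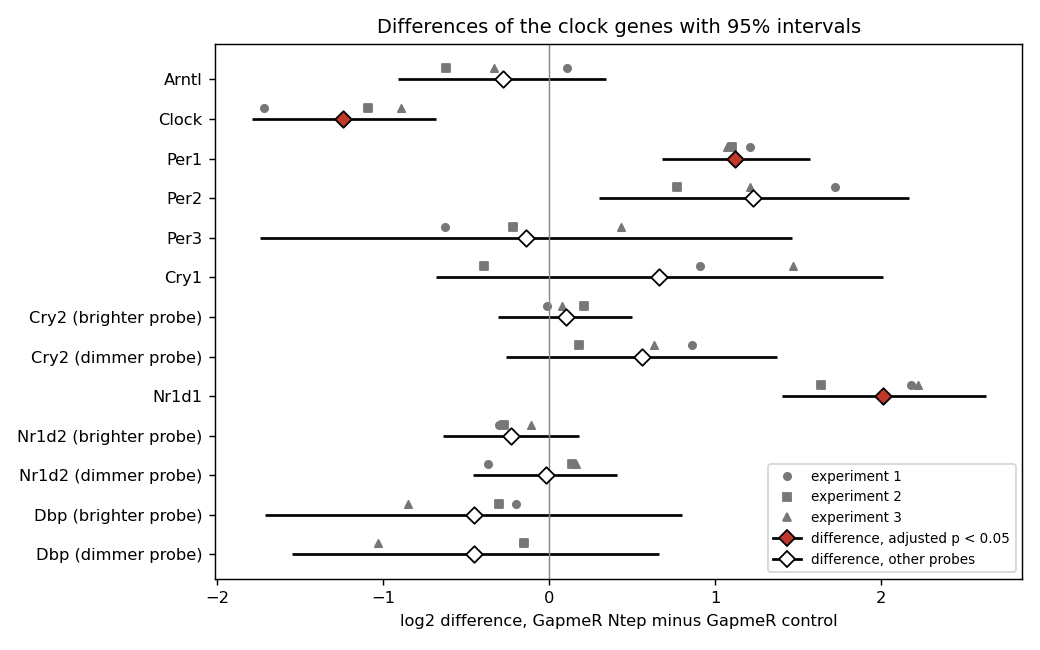
Log2 differences (GapmeR Ntep minus GapmeR control) of the 13 tested clock gene probes. Diamonds are the differences of group means with 95% intervals from limma, filled where the adjusted p was under 0.05, and small grey symbols are the 3 experiments. The intervals of Nr1d1 (1.4 to 2.63), Per1 (0.68 to 1.57), Per2 (0.30 to 2.17) and Clock (-1.79 to -0.68) do not reach 0.

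For Nr1d1, Per1, Per2 and Clock the exact permutation test of the single gene gave a two-sided p of 0.1, the smallest value that 3 against 3 arrays allow. Groups that do not overlap always give this value, so it adds nothing to the separation described above. The direction of these 4 genes was the same under all 18 alternatives computed for each. After leaving out both arrays of experiment 1, no clock gene passed the adjusted test in limma, 5 had an unadjusted p under 0.05 (as had 30.6% of all gene names in that fit), and Nr1d1 and Per1 passed the rule of fold change and unadjusted p. The methods' t-test called 0 clock genes after adjustment and 4 at an unadjusted p under 0.05, a limit that 23.1% of all gene names passed with it. Treating experiments as blocks called 4 clock genes, Per2 being added, and 3071 gene names in all against 1138 without blocks. In that fit the limma adjusted p was 0.031 for Nr1d1, 0.0323 for Per1 and 0.0436 for Clock.

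Promoter sequences were compared because the genes that moved belong to a loop that acts through short DNA elements. RefSeq (GRCm38.p6) held 13 starts for 9 of the 10 genes, with Per2 having no entry, and the 250 bases before each start were searched on both strands. The elements were the E-box CACGTG, the E′-box CACGTT, the D-box TTANGTAA, the ROR element TAGGTCA and the cyclic AMP response element TGACGTCA. None of these motifs overlaps another in the matches given here. Per1 held an E-box 166 bases before the first of its 2 starts and none of the motifs before the other. Cry1 held an E-box at 60 and an E′-box at 79 bases before its start. Nr1d1 held an E′-box 28 bases before its start, on the opposite strand, and Cry2 held an E′-box at 166 bases. Per3 held D-boxes at 205 and 158 bases. Clock (3 starts), Arntl (2 starts), Dbp and Nr1d2 matched none of the motifs in this window. Among all 32851 promoters of this length, the E-box was present in 6.02%, the E′-box in 3.85%, the D-box in 2.06%, the ROR element in 2.23% and the cyclic AMP response element in 1.55%. The called genes thus included promoters with a match (Per1, Nr1d1) and without (Clock), as did the genes that were not called (Cry1, Cry2 and Per3 against Dbp, Arntl and Nr1d2). Elements outside this window or with other letters were not searched for, so a gene without a match here may still hold some. The 250 bases before the start of the genes that rose are given 5′ to 3′ on the strand of the gene, with the motif in capitals. They lie at chr11:69098699-69098948 (plus strand, first Per1 start) and chr11:98775378-98775627 (minus strand, Nr1d1) of GRCm38.p6, and the E′-box of Nr1d1 appears as its reverse complement.
Per1: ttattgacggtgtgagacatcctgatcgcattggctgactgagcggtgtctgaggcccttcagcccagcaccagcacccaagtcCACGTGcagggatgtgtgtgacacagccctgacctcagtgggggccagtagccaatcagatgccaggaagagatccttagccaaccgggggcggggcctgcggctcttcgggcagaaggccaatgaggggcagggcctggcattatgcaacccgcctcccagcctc
Nr1d1: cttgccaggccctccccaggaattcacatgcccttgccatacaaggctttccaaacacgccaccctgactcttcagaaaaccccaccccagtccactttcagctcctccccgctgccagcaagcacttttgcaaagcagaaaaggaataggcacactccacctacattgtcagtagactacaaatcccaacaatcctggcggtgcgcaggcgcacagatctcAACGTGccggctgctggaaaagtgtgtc

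**Figure D3:**
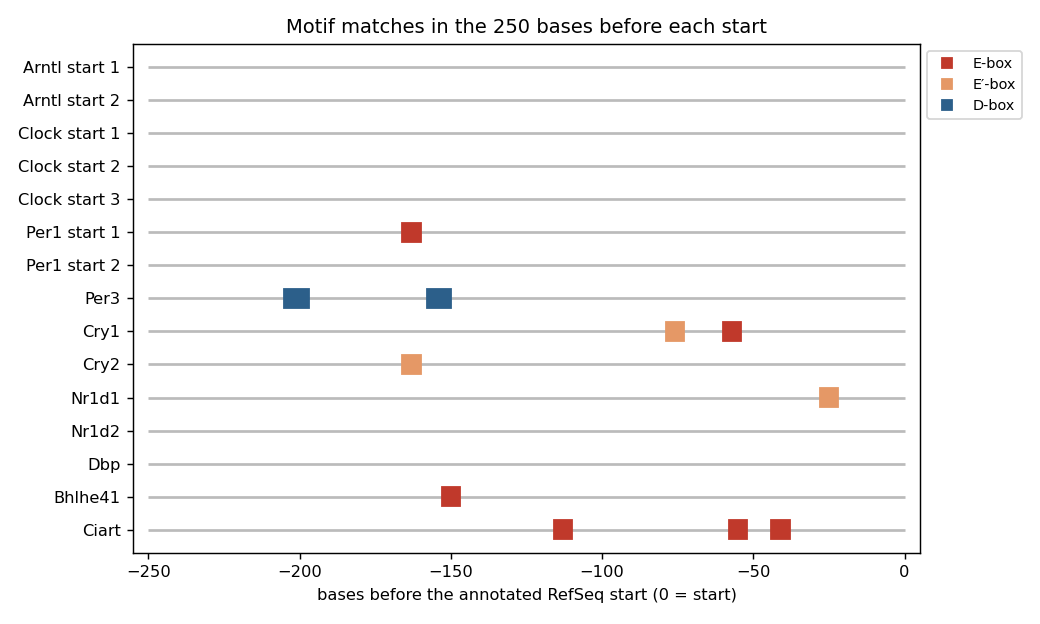
Positions of motif matches in the 250 bases before each annotated RefSeq start (horizontal axis, bases before the start at 0) for the 9 clock genes with an entry and for Bhlhe41 and Ciart. Boxes mark E-box, E′-box and D-box matches on either strand, and lines without a box had no match. The E-box of Per1 lies 166 bases and the E′-box of Nr1d1 28 bases before the start.

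Around these 10 genes, 40 further genes of the clock pathway were listed in 4 groups, of which 39 were on the array and 36 were tested. Of the 36, 24 were higher and 12 lower with GapmeR Ntep, with a median log2 difference of 0.24 against 0.06 over all gene names. Bhlhe41 and Crem rose and Btrc and Hdac3 fell after adjustment, so 2 were higher and 2 were lower. The rule of fold change and unadjusted p gave 3 higher and 2 lower, against the shares for all gene names above. In limma, 14 of the 36 had an unadjusted p under 0.05, as had 24.9% of all tested gene names. The number called after adjustment was 7 with experiments as a replicate block, 2 with 75th percentile scaling and 1 without experiment 1. It was 5 without GapmeR Ntep 2 and 0 without any other single array.

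Among the other core and loop factors, 9 of 12 were tested, 7 were higher and 2 lower, and their median was 0.66. Bhlhe41 (DEC2), an E-box binding repressor of CLOCK and ARNTL, had signals of 554, 352 and 452 on the GapmeR Ntep arrays and 168, 116 and 175 on the GapmeR control arrays. The groups did not overlap, and Bhlhe41 rose 2.96-fold (log2 difference 1.57, SE 0.26, limma adjusted p = 0.0348). The related Bhlhe40 had a log2 difference of 0.59 with overlapping groups (limma adjusted p = 0.255). Ciart (CHRONO, listed as Gm129), another repressor of the loop, gave 4259, 1041 and 2606 against 615, 591 and 665. All GapmeR Ntep arrays were above all control arrays and spread widely, and the log2 difference of 1.86 (SE 0.51) did not pass (limma adjusted p = 0.0881). Rorb, which encodes a nuclear receptor of the ROR family, had 1 array well above background and a log2 difference of 0.94 that came from GapmeR Ntep 3 (limma adjusted p = 0.545). The 250 bases before the starts of Ciart (chr3:95882229-95882478, minus strand, GRCm38.p6) and Bhlhe41 (chr6:145865421-145865670, minus strand) are shown because these genes had the largest differences of the list to hold E-boxes, in capitals. In Ciart these lie 116, 58 and 44 bases before the start, and in Bhlhe41 153 bases before it. On the same list, Tef (log2 difference 0.53, limma adjusted p = 0.196) held an E-box 127 and 138 bases before its 2 starts, and Cipc, which was not analysed here on the arrays, held 1 at 17 bases.
Ciart: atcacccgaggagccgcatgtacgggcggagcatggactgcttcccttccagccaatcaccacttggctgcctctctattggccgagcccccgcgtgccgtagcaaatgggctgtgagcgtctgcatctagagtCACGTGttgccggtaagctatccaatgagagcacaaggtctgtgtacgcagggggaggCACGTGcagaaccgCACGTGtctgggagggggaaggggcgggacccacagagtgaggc
Bhlhe41: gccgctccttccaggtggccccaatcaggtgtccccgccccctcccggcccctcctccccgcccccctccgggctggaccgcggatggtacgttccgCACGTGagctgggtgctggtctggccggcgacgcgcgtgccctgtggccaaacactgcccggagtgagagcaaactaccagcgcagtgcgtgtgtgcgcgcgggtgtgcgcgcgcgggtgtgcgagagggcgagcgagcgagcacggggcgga

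Of the 12 kinases, ligases and cofactors that modify clock proteins, 5 were higher and 7 lower (median -0.25, or 6 and 6 with a median of -0.08 under 75th percentile scaling), and 2 fell after adjustment. Btrc (beta-TrCP1), the ligase subunit that marks PER proteins for degradation, gave 279, 345 and 273 against 671, 592 and 623 and was 2.11-fold lower (log2 difference -1.08, SE 0.17, limma adjusted p = 0.0335). Its dimmer probe, at -0.43, did not pass (limma adjusted p = 0.417). Hdac3, the deacetylase that REV-ERB recruits through NCOR, gave 3399, 2986 and 3014 against 5586, 5184 and 5327. Both groups were tight and did not overlap, with a log2 difference of -0.78 (SE 0.15, limma adjusted p = 0.0472). Fbxl21, a ligase subunit for CRY proteins, had a log2 difference of -1.25 (limma adjusted p = 0.0815, or 0.0346 and called with experiments as a replicate block) by its brighter probe and 0.38 by its dimmer one. Probes of Gsk3b, a kinase gene, also disagreed, with -0.48 for the brightest against 1.08 (limma adjusted p = 0.0326) and -1.22 (limma adjusted p = 0.147) for the others. A dimmer probe also passed for Csnk1d (1.01, limma adjusted p = 0.0353), Csnk1e (1.33, limma adjusted p = 0.0338) and Ncor1 (-1.11, limma adjusted p = 0.0482). The brightest probes of these genes, at -0.14, 0.32 and -0.50, did not pass. Where the probe with the smallest p stood for a gene in place of the brightest, 10 of the 36 genes were called after adjustment.

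Among 8 clock outputs, none passed the adjusted test in limma by its brightest probe. An unadjusted p under 0.05 was found for 2 (against 24.9% of all tested gene names), and the median was 0.12. Klf9, a Kruppel-like factor with daily expression that also responds to glucocorticoids, gave 11642, 6549 and 8722 against 3707, 4440 and 4040. The groups did not overlap, and the log2 difference of 1.11 (SE 0.25) passed the rule of fold change and unadjusted p (limma adjusted p = 0.0607). A dimmer Klf9 probe passed the adjusted test (log2 difference 1.99, limma adjusted p = 0.0328). Its signals were 120, 84.4 and 152 against 30.8, 21.1 and 37.7, and no GapmeR control array was well above background. Nampt, the NAD salvage enzyme under CLOCK control, read 16396, 25632 and 22144 against 41444, 42809 and 34003. It was lower in each experiment, with a log2 difference of -0.90 that missed the adjusted threshold (SE 0.23, limma adjusted p = 0.0756). Thra, the thyroid hormone receptor gene whose end overlaps Nr1d1 on the opposite strand, had a log2 difference of -0.55 by its brighter probe (limma adjusted p = 0.228), opposite in sign to Nr1d1. Klf10 was at -0.31 (limma adjusted p = 0.46).

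The last list held 8 targets of CREB and of glucocorticoids, the signals that induce Per1 and Per2 apart from the clock. All 7 tested were above 0, as were 12000 of all 22094 gene names tested. With normexp background correction, which let 1 more gene be tested, 7 of 8 were above 0. The median was 0.60 against 0.06 over all gene names, and 1 gene passed the adjusted test. Of the 7, 5 had groups that did not overlap upwards, beside 17.1% of all tested gene names. The smallest differences were those of Sik1 (0.19, limma adjusted p = 0.835) and Fkbp5 (0.23, limma adjusted p = 0.404). Crem, the gene of the cyclic AMP response element modulator, gave 984, 527 and 727 against 330, 268 and 255. This was a 2.56-fold rise (log2 difference 1.35, SE 0.27, limma adjusted p = 0.048). A dimmer Crem probe was level at 0.12 (limma adjusted p = 0.831). Dusp1, a phosphatase gene induced by serum and glucocorticoids, gave 23207, 11613 and 10207 against 9413, 4620 and 3671. Within each experiment Dusp1 was higher by 1.30, 1.33 and 1.48 on the log2 scale, yet arrays of experiment 1 were about as far above the others under both labels, and the unpaired difference of 1.37 had a limma adjusted p of 0.143. With experiments as a replicate block Dusp1 was called (limma adjusted p = 0.031). Sgk1, a glucocorticoid-induced kinase gene, differed by 1.38 with overlapping groups (limma adjusted p = 0.253). Tsc22d3 (GILZ) differed by 0.60 (limma adjusted p = 0.24).

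**Figure D4:**
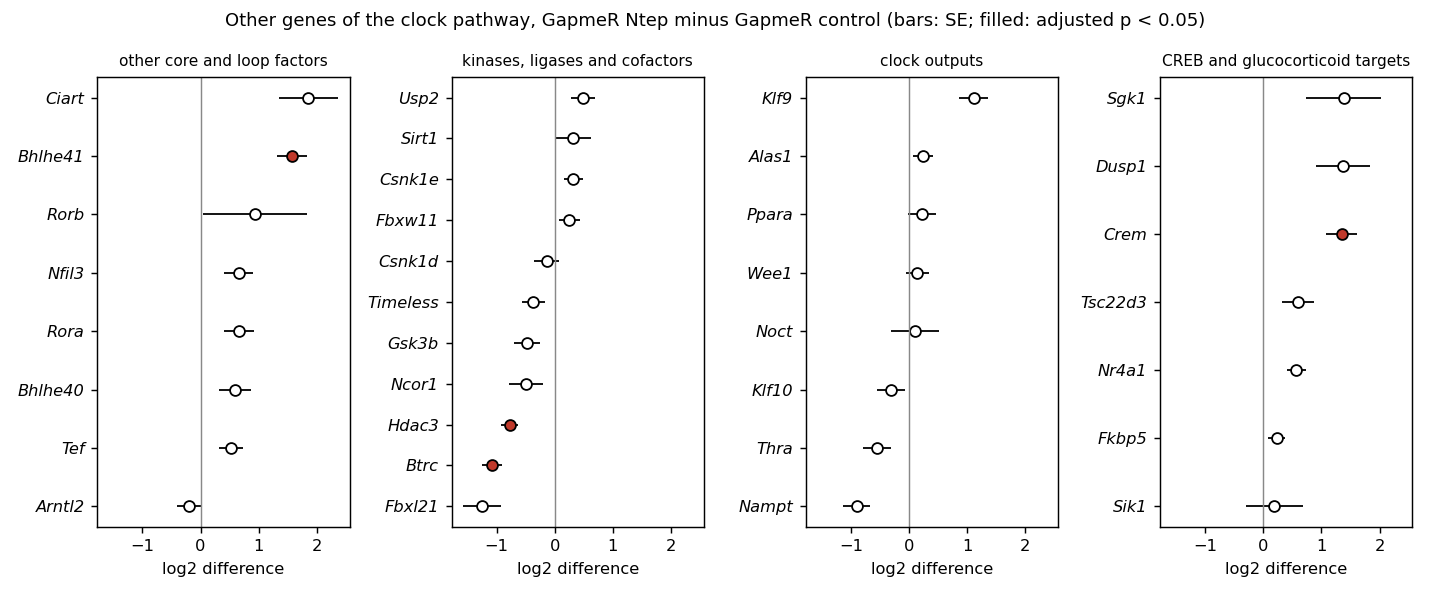
Log2 differences (GapmeR Ntep minus GapmeR control, horizontal axes) of tested further clock genes in 4 lists, by the brightest probe of each gene. Bars are standard errors and filled points have an adjusted p under 0.05, which are Bhlhe41 (1.57), Crem (1.35), Hdac3 (-0.78) and Btrc (-1.08). All points of the list of CREB and glucocorticoid targets lie above 0 here, against 7 of 8 with normexp background correction.

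The genes whose log2 values followed those of Nr1d1 most closely over the 6 arrays, out of 12349 candidates well above background on every array, were 4933426M11Rik (Pearson r = 0.998), Nmt1 (0.998), Rpusd4 (0.998), Ppp1r13l (0.997) and Rnf44 (0.996). These correlations are descriptions over arrays that fall into 2 groups, and none of the 5 is on a clock list. Their differences were smaller than the 2.01 of Nr1d1, from 0.38 for Nmt1 (limma adjusted p = 0.195) to 1.11 for Rpusd4 (limma adjusted p = 0.0351).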

How the data were processed

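The deposited scanner files, per the labels from Agilent Feature Extraction 10.7.3.1, hold intensity values that the authors had background subtracted but not normalized between arrays. The authors also deposited a table of intensity values after quantile normalization with a floor of 20, used as an alternative. Genome coordinates of probes are those of mm9 in the files. Here, spot averages per probe went through quantile normalization, a floor of 20 and the log2 transformation. An unpaired fit with limma 3.58.1 (R 4.3.3) then compared 3 with 3 arrays, after the study's settings. Testing required that 1 of the groups had a mean signal of 50 or more, and the two-sided p-values of the 30990 probes that met this were adjusted together (Benjamini-Hochberg). The brightest tested probe stands for a gene. Signals of different probes are not compared as levels. The number of arrays limits the precision. All arrays were on 1 slide with 1 scan. The steps were tested on simulated data.

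Experiments were assigned from the culture days in the study's supplementary lists. The correlation of residuals was 0.466, 0.3 and 0.254 for arrays of the same experiment, against -0.327 to 0.126 otherwise, so the pairing was taken as real and a fit with experiments as blocks was run beside the unpaired one. The clock genes, lists and tests were chosen with earlier results of these data known. Named genes were all 10 clock genes with all probes, and of each further list the called genes and at most the 4 largest differences. Bhlhe40, Gsk3b, Csnk1d, Csnk1e, Ncor1, Sik1, Fkbp5, Tef, Cipc, the collagen genes, Vim, Thy1 and the dimmer probes of further genes were added after their values were seen. Of the further lists, 2 genes are counted but not reported here by name. The likeness search took the clock gene with the largest difference. Alternatives covered scaling, background correction, floor, filter, test and the arrays used, and the omission of experiment 1 was added after the data were seen.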

Additional observations from a re-analysis of the deposited data

How the results depend on the processing

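Of 233 comparisons of a clock gene probe with an alternative setting, 198 kept both direction and side of the threshold, 26 lost the call, 2 gained it and 7 changed sign. The sign changes were in values near 0. Per3 (-0.57 to 0.46 when single arrays were left out) turned to 0.46 without GapmeR Ntep 1, 0.33 without GapmeR control 2 and 0.11 without experiment 1. The dimmer Nr1d2 probe (-0.09 to 0.08 when single arrays were left out) turned to 0.10 with array weights, 0.05 without GapmeR Ntep 1, 0.08 without GapmeR control 1 and 0.15 without experiment 1. Per2 passed with the replicate block (limma adjusted p = 0.0467) and with array weights (0.0147). The 3 clock genes called after adjustment became 1 (Nr1d1) with 75th percentile scaling, 0 with the methods' t-test (4 at an unadjusted p under 0.05), 0 without experiment 1 (5 at that limit), and 0 to 1 when single arrays were left out (3 to 5 at that limit, beside 16% to 28.2% of all gene names). The fold change rule gave 3 or 4 clock genes when single arrays were left out. The median of the clock genes was -0.08 to 0.31 when single arrays were left out, the highest without GapmeR Ntep 1. The 1138 gene names called after adjustment became 756 with no filter on dim probes, 3071 with the replicate block, 2005 with a variance trend, 7417 with array weights, 204 with the methods' t-test and 618 without experiment 1, and 0 to 961 when single arrays were left out (0 without GapmeR control 2 and without GapmeR Ntep 3, where limma gave 3527 and 4276 at an unadjusted p under 0.05). The 1739 gene names past the fold change rule became 3152 with array weights, 986 with the methods' t-test and 1064 to 2184 when single arrays were left out. The 4 further clock genes called became 2 with 75th percentile scaling, 7 with the replicate block, 7 with a variance trend, 18 with array weights, 1 with the methods' t-test, 1 without experiment 1, 10 by the probe with the smallest p, and 0 to 5 when single arrays were left out. The causes were not tested. Scaling to the 75th percentile moved the median of all gene names from 0.06 to 0.22, and relative to it Nr1d1, Per1 and Clock kept their directions. The replicate block changed no clock gene call other than that of Per2. Per3, on 2 arrays above background, is limited by its low signal.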
